A study of Homo sapiens with 6 samples.

Results

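The miR-17-92 polycistron is a stretch of chromosome 13 from which 6 microRNA (miRNA) hairpins are cut out of 1 primary transcript, the long non-coding RNA MIR17HG. The members were the 6 probes for these hairpins, chosen by probe name from the 798 miRNA probes of an nCounter panel, and all 6 passed the background filter that left 152 probes for testing. The panel tags each miRNA by ligation and counts it with a barcoded probe. RNA (100 ng) came from A549, a human lung adenocarcinoma cell line, in 2 groups of 3 libraries, all transfected with 100 pmol of siRNA and collected after 72 h. The control group (siSCR) had received a scramble siRNA and the other group (siAPE1) an siRNA against APE1, the base excision repair endonuclease encoded by APEX1. The panel carries no probe for APEX1, and these libraries therefore hold no measure of the silencing itself. Both groups are transient transfections of 1 cell line.

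Drosha cuts the hairpins out of the primary transcript in the nucleus, and Dicer then releases the mature miRNA, which guides Argonaute to mRNAs that pair with its seed. MYC switches the polycistron on, and the locus is amplified in some lymphomas and lung cancers. It is also known as oncomiR-1. Its miRNAs fall into seed families with separate known targets: the miR-17 family represses CDKN1A and E2F1, and miR-92a represses ITGA5 in endothelial cells.

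On GRCh38.p14 (RefSeq), MIR17HG runs on the plus strand of chromosome 13 from base 91347687 to base 91354577, and the 6 hairpins lie within 787 bases of it, separated by 35 to 92 bases. Their order is MIR17, MIR18A, MIR19A, MIR20A, MIR19B1 and MIR92A1. The measured arms are the 5p arm of MIR17, MIR18A and MIR20A and the 3p arm of MIR19A, MIR19B1 and MIR92A1. The mature sequences are shown because their seeds (bases 2 to 8, in capitals) sort the members into 4 groups, which the comparisons below use.
hsa-miR-17-5p: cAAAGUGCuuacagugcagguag
hsa-miR-20a-5p: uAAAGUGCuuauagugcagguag
hsa-miR-18a-5p: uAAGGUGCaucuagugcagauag
hsa-miR-19a-3p: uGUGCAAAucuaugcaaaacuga
hsa-miR-19b-3p: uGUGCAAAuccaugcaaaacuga
hsa-miR-92a-3p: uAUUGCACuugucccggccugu

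Counted from 1 at the 5′ end, miR-17-5p differs from miR-20a-5p by C1U and C12U, outside the seed, and miR-19a-3p differs from miR-19b-3p by U11C alone. The seed of miR-18a-5p differs from that of miR-17-5p by A4G. Of the 6 probes, 4 cannot be assigned to chromosome 13 alone. The miR-17 and miR-20a probes are joint probes that also read miR-106a-5p and miR-20b-5p of a paralogous cluster on the X chromosome, shown here because they are nearly identical to the members.
hsa-miR-106a-5p: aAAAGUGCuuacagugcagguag
hsa-miR-20b-5p: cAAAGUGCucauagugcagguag

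They differ from their partners by C1A (miR-17-5p to miR-106a-5p) and by U1C and U10C (miR-20a-5p to miR-20b-5p). The mature miR-19b-3p and miR-92a-3p are also encoded on the X chromosome, by MIR19B2 and MIR92A2, so only miR-18a-5p and miR-19a-3p have a mature sequence with 1 listed locus. Below, "the miR-17 probe" and "the miR-20a probe" stand for the joint probes.

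The libraries held 312152 to 488407 counts. Levels are given as scaled counts, the raw count divided by a library factor from positive controls and housekeeping mRNAs (0.817 to 1.34), with no background subtracted. The background limit, the mean plus 2 SD of the negative controls, was 53.1 to 75.8 raw counts. Of 5 epithelial markers (miR-200 family), 1 was tested. It passed the filter through the siSCR libraries alone and lay under the limit in every siAPE1 library. miR-141-3p and miR-429 were below the limit in every library. The summed epithelial markers were 236 to 285 scaled counts in siSCR and 216 to 264 in siAPE1. No blood marker (0 of 5) and no muscle, neuron or liver marker (0 of 4) passed the filter, with sums of 119 to 135 and 92.5 to 109.8 in siSCR and 135 to 186 and 96.1 to 128 in siAPE1. The part of these markers in the results was not tested. In bulk RNA, fewer cells that contain a miRNA and less of it per cell cannot be told apart.

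Of the 6 members, 3 were called lower after APE1 silencing, namely miR-18a, miR-19a and miR-19b, and none passed the test as higher. The share of all tested miRNAs called lower was 50.7%, and 9.87% were called higher, so the members' count was close to the background. All 6 members, but only 123 of the 152 tested miRNAs, were above the background limit in all 6 libraries. The rest could enter the test through 1 group alone. The calls also depended on the scaling: with library factors taken from the miRNAs (TMM), 1 member was called lower and 1 higher. The shares of all tested miRNAs were then 30.3% and 30.9%. The median log2 fold change (siAPE1 over siSCR) was -0.38 over the 6 members and -0.34 over the 152 tested miRNAs. miR-92a, from the last hairpin, was at 0.36 without a call, and its ratio to the miR-17 probe rose by 0.72 (limma adjusted p = 0.000530), although the groups overlapped. With miR-92a as the reference of the same ratio the limma adjusted p was 0.0486. Both limma values rest largely on a spread pooled over all tested miRNAs. For the miR-92 over the miR-17 seed group the exact permutation p was 0.2.

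The miR-17 probe reads the first hairpin and gives its name to the seed family of cell cycle regulators. It gave 604, 615 and 700.4 scaled counts in the siSCR libraries (replicates 1 to 3) and 460.4, 588 and 515 in the siAPE1 libraries. All 3 siAPE1 values lay below all siSCR values, although siAPE1 replicate 2 came close to the lowest of them. The means were 640.0 ± 52.6 and 521 ± 63.7 (SD, n = 3 each), and the log2 fold change of -0.30 ± 0.17 (SE) did not pass the threshold of 0.1 (edgeR adjusted p = 0.118).

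The miR-20a probe, with the same seed, had 609, 564 and 649.5 scaled counts in siSCR and 402, 498 and 574 in siAPE1. The groups overlapped, because siAPE1 replicate 3 exceeded siSCR replicate 2. Its log2 fold change was -0.31 ± 0.17 (edgeR adjusted p = 0.109), again without a call, and it was -0.18 without siAPE1 replicate 1 (edgeR adjusted p = 0.412) and -0.43 without siAPE1 replicate 3 (edgeR adjusted p = 0.0146).

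miR-18a-5p, the single member of its seed group here, had 270.3, 252 and 287 scaled counts in siSCR and 174, 177 and 194 in siAPE1. The gap between the groups was wider than the spread within either. Its mean fell from 270 ± 17.7 to 182 ± 10.9 (SD, n = 3 each), a log2 fold change of -0.57 ± 0.17 (edgeR adjusted p = 0.00247).

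miR-19a-3p belongs to the miR-19 family, known in mouse lymphoma as the main oncogenic component of the polycistron. It gave 399.6, 331 and 317 scaled counts in siSCR and 170.2, 244 and 262 in siAPE1. The groups were separate, and both were widely spread, with siSCR replicate 1 high and siAPE1 replicate 1 low. The log2 fold change of -0.64 ± 0.17 had the smallest adjusted p of the members (edgeR, 0.000629). That SE was nearly the same as for miR-18a, although miR-19a varied more between libraries (SD 44.3 in siSCR and 48.6 in siAPE1). With TMM scaling miR-19a lost its call (edgeR adjusted p = 0.101), whereas miR-18a kept its own (edgeR adjusted p = 0.0739).

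miR-19b-3p, with the same seed, had 632, 649 and 732 scaled counts in siSCR and 416, 498 and 550.5 in siAPE1. The siAPE1 values again lay wholly below those of siSCR. Its log2 fold change was -0.46 ± 0.17 (edgeR adjusted p = 0.0134).

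miR-92a-3p, the last member and the only one with the miR-92 seed, had 63.8, 79.0 and 148 scaled counts in siSCR and 127, 118 and 119.9 in siAPE1. The siAPE1 libraries were nearly equal, whereas siSCR replicate 3 was above every siAPE1 library and the other siSCR libraries were below them. The counting intervals (exact Poisson, 95%) were 49.9 to 80.3, 64.7 to 95.6 and 124 to 176 in siSCR, and they cover counting error only. The log2 fold change was 0.36 ± 0.19 (edgeR adjusted p = 0.104), and it turned on single siSCR libraries. It was 0.14 without siSCR replicate 1 (edgeR adjusted p = 0.566), 0.23 without replicate 2 (edgeR adjusted p = 0.404) and 0.76 without replicate 3 (edgeR adjusted p = 6.84e-05). This probe was also the dimmest member, at 1.36 to 1.93 times the background limit, against 2.15 to 13.4 times for the other members. The limit itself, divided by the scaling factor, was 47.1, 52.6 and 77.0 in siSCR and 79.1, 66.9 and 77.4 in siAPE1, so the siSCR library with the highest miR-92a count also had the highest limit of its group. With the negative-control mean subtracted, the miR-92a means were 72.7 ± 40.6 and 90.0 ± 4.36 (SD, n = 3 each).

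**Figure D1:**
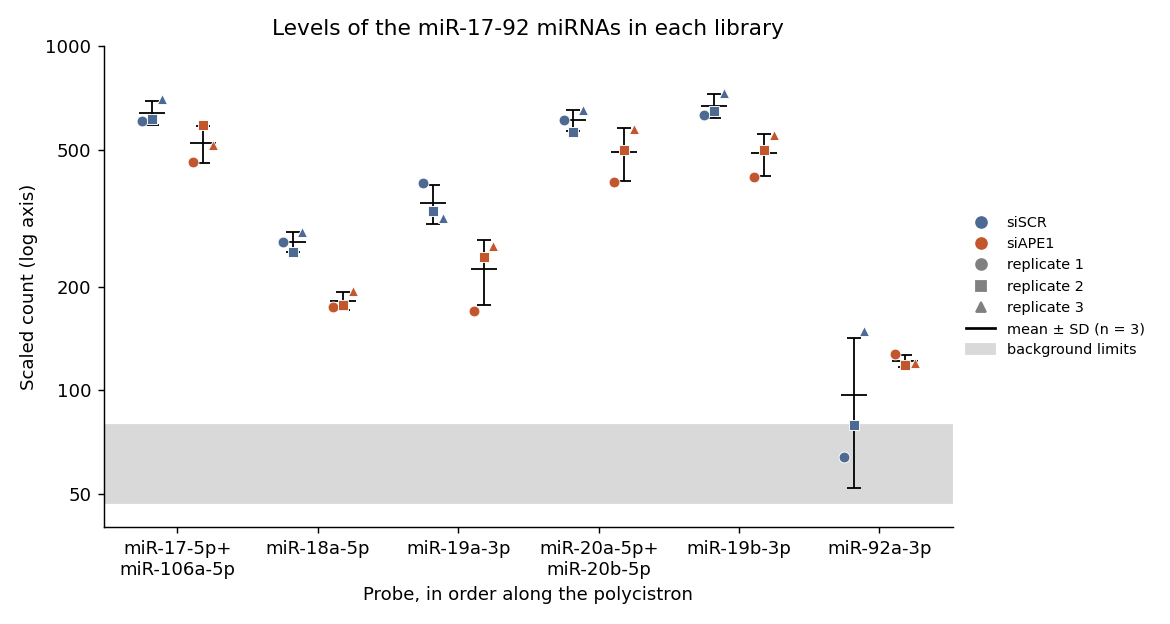
Scaled counts (log axis) of the 6 member probes in each library, in their order along the polycistron, with the mean ± SD of 3 libraries per group and the range of background limits in grey. The siAPE1 libraries lie below the siSCR libraries for miR-17, miR-18a, miR-19a and miR-19b, while miR-92a lies close to background and its siSCR libraries spread from 63.8 to 148.

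With the groups not overlapping for 4 of 6 members (siAPE1 lower), the share over all tested miRNAs was 52.6%. None of the 6 lay wholly above siSCR, against 7.24% of the tested miRNAs. In the order of fold changes from the lowest of 152, miR-19a ranked 42, miR-18a 50, miR-19b 62, miR-20a 80, miR-17 83 and miR-92a 137. The miR-17 and miR-20a probes were thus within 0.04 log2 units of the median of all tested miRNAs, whereas miR-92a was 0.70 above it. Along the transcript the values did not run in 1 direction: miR-18a and miR-19a, between the miR-17 and miR-20a hairpins, were lower than both.

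**Figure D2:**
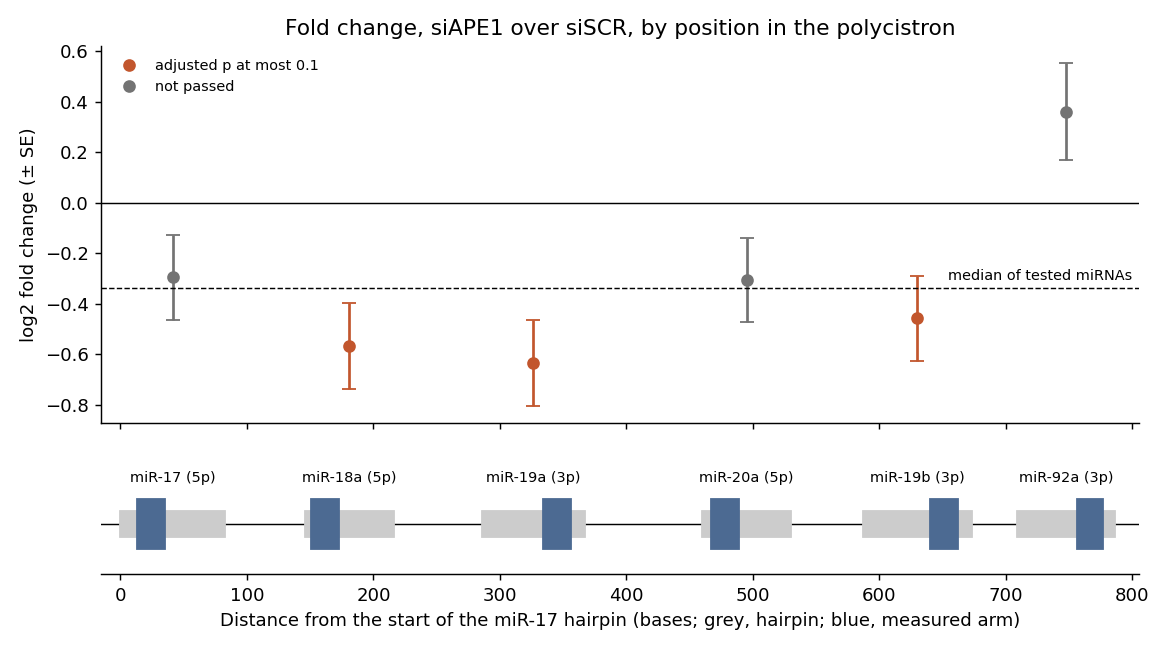
Log2 fold change (siAPE1 over siSCR, ± SE) of each member above a scale map of the 6 hairpins (grey) and measured arms (blue), with distance in bases from the start of the miR-17 hairpin. miR-18a, miR-19a and miR-19b passed the test (orange), and miR-92a is the only member above 0 with this scaling.

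The sum of the 6 members was 2634 ± 179 scaled counts in siSCR and 2029.7 ± 247 in siAPE1 (SD, n = 3 each). The groups did not overlap, and the exact two-sided permutation p was 0.1, the smallest that 3 against 3 libraries allow. As a share of all miRNA counts of a library, the members held 1.02 ± 0.0566% in siSCR and 0.914 ± 0.0514% in siAPE1, also without overlap (exact permutation p = 0.1). This share scales by the miRNA total instead of by controls, and that total includes the background of all 798 probes.

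The direction of 3 members depended on how libraries were scaled. TMM scaling, which takes its factors from the miRNAs, moved the median of all tested miRNAs from -0.34 to 0.02. The miR-17 probe was then at 0.07 and the miR-20a probe at 0.04, with no call for either. miR-18a (-0.21, edgeR adjusted p = 0.0739), miR-19a (-0.30, adjusted p = 0.101) and miR-19b (-0.10, adjusted p = 0.265) kept their sign, and only miR-18a kept its call. The share of tested miRNAs called was then 30.3% lower and 30.9% higher. miR-92a was called higher with TMM (0.75, adjusted p = 0.00674), and it was at -0.01 (adjusted p = 0.949) when positive controls alone set the scale.

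**Figure D3:**
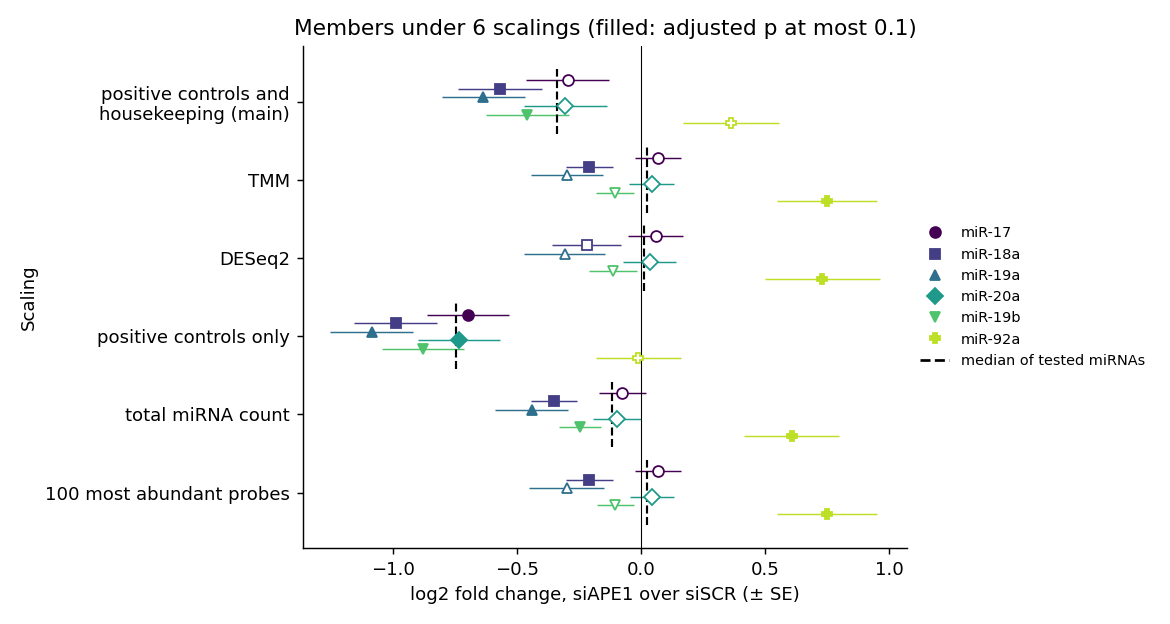
Log2 fold change (± SE) of each member under 6 library scalings, with the median of all tested miRNAs as a dashed line and filled symbols for an adjusted p of at most 0.1. A scaling shifts all miRNAs nearly alike, so the plot shows where 0 falls among the members and not a test of their order.

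Ratios between members of the same library do not use the scaling factor, so they show which members changed relative to each other. Each tested miRNA was divided by the miR-17 probe of its library. miR-92a rose relative to miR-17, from 10.6%, 12.8% and 21.2% of its count in siSCR to 27.7%, 20.1% and 23.3% in siAPE1. Only siSCR replicate 3 reached into the siAPE1 range. The difference was 1.01 on the log2 scale without it and 0.51 without siSCR replicate 1 (limma adjusted p = 0.0481). After background subtraction the difference was 0.79 (limma adjusted p = 0.0715). This log2 difference of 0.72 ± 0.18 passed the test as given above, where 19.2% of the other tested miRNAs were called higher relative to miR-17 and 25.8% lower. The same ratio had an SE of 0.32 and a limma adjusted p of 0.0486 when all tested miRNAs were divided by miR-92a instead. Limma draws these SEs towards a spread shared by all tested miRNAs. The SD of the miR-92a ratio to miR-17 itself was 0.51 in siSCR and 0.23 in siAPE1.

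The remaining ratios to miR-17 were smaller. miR-18a went from 44.7%, 41.0% and 41.0% of the miR-17 count to 37.9%, 30.1% and 37.8%, with no overlap between groups, where 26.5% of tested miRNAs lay wholly below. Its difference of -0.26 ± 0.17 did not pass (limma adjusted p = 0.203). miR-19a differed by -0.35 ± 0.17, just outside the threshold (limma adjusted p = 0.1005), and with a robust prior, tried after the data were seen, its adjusted p was 0.0917 (limma). For miR-19b (-0.16, limma adjusted p = 0.458) and miR-20a (-0.02, limma adjusted p = 0.948) the groups overlapped. The SE of each of these ratios was 0.17.

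**Figure D4:**
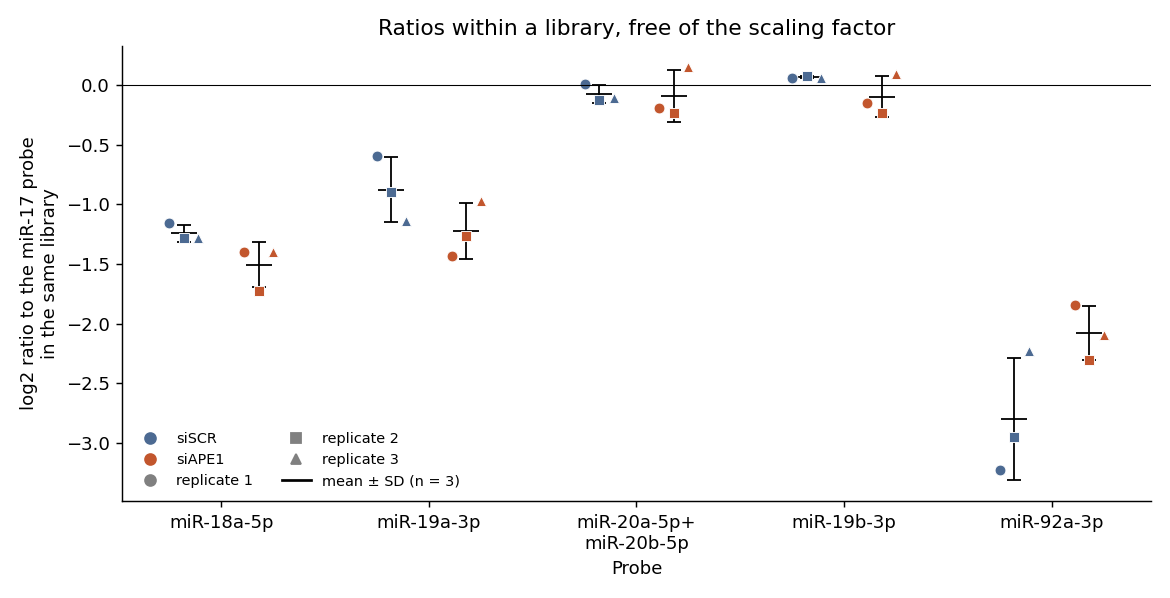
Log2 ratio of each member to the miR-17 probe in the same library, with the mean ± SD of 3 libraries per group. miR-92a is higher in siAPE1 apart from siSCR replicate 3, miR-18a is lower in every siAPE1 library, and miR-20a overlaps.

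The seed groups were then compared through their summed counts, since miRNAs of 1 seed share targets. The miR-17 seed group held 47.3 ± 0.290% of the members' counts in siSCR and 49.9 ± 1.11% in siAPE1, the miR-19 group 38.8 ± 1.58% and 35.0 ± 1.60%, the miR-18 group 10.2 ± 0.202% and 9.03 ± 0.843%, and the miR-92 group 3.63 ± 1.43% and 6.09 ± 1.04% (SD, n = 3 each). Probes differ in how well they capture their miRNA, so these are shares of counts, not of molecules. The miR-19 group over the miR-17 group was lower in all 3 siAPE1 libraries than in any siSCR library, by -0.22 on the log2 scale, and so was the miR-18 group, by -0.26. The miR-92 group was higher in every siAPE1 library relative to the miR-18 group (0.99) and the miR-19 group (0.95). Each of these 4 had an exact permutation p of 0.1, the smallest possible, and 0.15 after Benjamini-Hochberg adjustment over the 6 pairs. The miR-92 group over the miR-17 group overlapped (0.73, exact permutation p = 0.2), as did the miR-19 group over the miR-18 group (0.04, exact permutation p = 0.8).

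Within a seed, the differences were not larger than the spread. The pairs were chosen after their values were seen. The ratio of miR-19a to miR-19b differed by -0.18 on the log2 scale (exact permutation p = 0.4), and that of the miR-20a to the miR-17 probe by -0.02 (exact permutation p = 1).

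Outside the polycistron, 9 other panel probes carried one of these seeds, matched through the RefSeq mature sequences found for 706 of the 798 probes. Of these, 4 were tested, and 1 fell, where 50.7% of all tested miRNAs did. The 4 are shown because their seeds are those of the members while their loci are not.
hsa-miR-106b-5p: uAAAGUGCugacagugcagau
hsa-miR-93-5p: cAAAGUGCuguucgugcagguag
hsa-miR-25-3p: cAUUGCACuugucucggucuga
hsa-miR-32-5p: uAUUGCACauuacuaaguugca

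miR-106b-5p and miR-93-5p, with the miR-17 seed, and miR-25-3p, with the miR-92 seed, come from a paralogous cluster on chromosome 7. miR-106b-5p (-0.29 ± 0.17, edgeR adjusted p = 0.126) and miR-93-5p (-0.28 ± 0.18, edgeR adjusted p = 0.163) had fold changes near those of the miR-17 and miR-20a probes, and none of these 4 probes passed. All 4 lay only 0.03 to 0.06 above the median of all tested miRNAs (-0.34), so the shared value is that of a typical tested miRNA. miR-25-3p was at 0.04 ± 0.18 (edgeR adjusted p = 0.868), and relative to the miR-17 probe it was higher by 0.34 (limma adjusted p = 0.0987), in the direction of miR-92a. Relative to that probe, 19.2% of the tested miRNAs were called higher.

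miR-32-5p, which lies on chromosome 9 and has the miR-92 seed, had 597, 499.6 and 444 scaled counts in siSCR and 229, 262 and 283 in siAPE1. The groups were far apart. Its log2 fold change was -0.997 ± 0.17 (edgeR adjusted p = 7.48e-08) and it was called lower with TMM as well (-0.66, edgeR adjusted p = 0.00177). Of the 3 tested miRNAs with the miR-92 seed, miR-32-5p was thus called lower, while miR-25-3p and miR-92a-3p did not pass. With TMM both of these were called higher (miR-25-3p 0.40, edgeR adjusted p = 0.000315, and miR-92a-3p 0.75, edgeR adjusted p = 0.00674). TMM called 30.9% of all tested miRNAs higher and 30.3% lower.

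**Figure D5:**
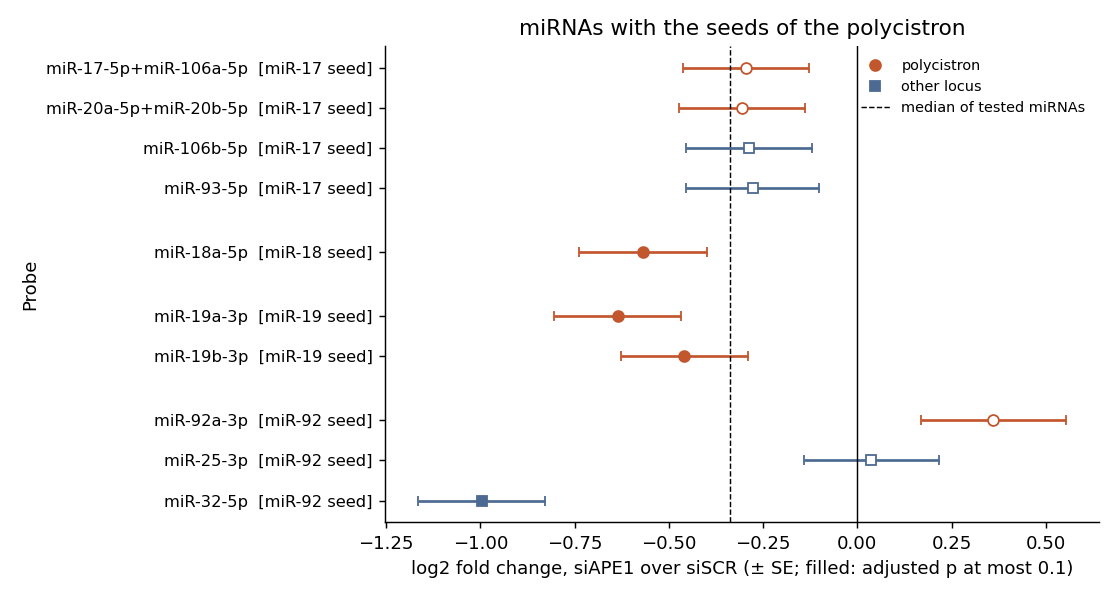
Log2 fold change (siAPE1 over siSCR, ± SE) of the tested miRNAs that carry a seed of the polycistron, grouped by seed, with filled symbols for an adjusted p of at most 0.1. The 4 probes with the miR-17 seed lie between -0.31 and -0.28, close to the median of all tested miRNAs (-0.34, dashed line). Those with the miR-92 seed run from -0.997 (miR-32-5p) to 0.36 (miR-92a-3p).

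The other 5 probes with these seeds were not tested. miR-18b-5p, miR-363-3p, miR-367-3p and miR-519d-3p were above the background limit in 0 of 6 libraries and miR-92b-3p in 1. miR-18b-5p and miR-363-3p are products of the X-linked paralogous cluster. Of the opposite arms of the 6 hairpins, 1 was on the panel, miR-92a-1-5p, with 26 to 43 raw counts, below the limit in all 6 libraries.

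Because MYC activates the polycistron, miRNAs known from lymphoma models to be lowered by MYC were set beside it. Of 20 listed, 17 were tested, 7 were lower, 0 were higher and 10 did not pass, with a median log2 fold change of -0.27. With TMM, 4 were lower and 6 higher, and the median was 0.08. Of all tested miRNAs, 50.7% were lower and 9.87% higher, and with TMM 30.3% and 30.9%, so the list's counts were near or below the background. Those with the smallest p were miR-146a-5p, miR-23b-3p (-0.64, edgeR adjusted p = 0.00127) and miR-29c-3p (-0.57, edgeR adjusted p = 0.00189). miR-146a-5p, a repressor of NF-kB signalling, passed the filter through the siSCR libraries alone (129, 146 and 173 scaled counts) and lay under the limit in every siAPE1 library (70.0, 56.6 and 70.9), so no fold change is given for it. It is still counted among the 7 and the 4 called lower and in both medians. Its entry into the test depended on its siSCR level, so its call is not read as a result.

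The miRNAs whose profile over the 6 libraries was most like the mean of the members were let-7g-5p, miR-106b-5p and miR-98-5p. Likeness was the root-mean-square distance of centred log2 scaled counts, 0.0318, 0.0354 and 0.0402. Their log2 fold changes (-0.33, -0.29 and -0.27) were near the median of all tested miRNAs (-0.34). A library factor moves all miRNAs of its library together, so part of such a likeness can come from the scaling, which was not tested. The members themselves lay 0.0778 (miR-20a), 0.0784 (miR-17), 0.0871 (miR-19b), 0.149 (miR-18a), 0.260 (miR-19a) and 0.481 (miR-92a) from their mean, against a median of 0.199 for the other tested miRNAs. miR-19a and miR-92a were therefore less like the members' mean than a typical tested miRNA was.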

How the data were processed

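The authors deposited raw counts per probe for 6 nCounter human v3 miRNA libraries (3 siSCR, 3 siAPE1), and a table of processed values whose unit is a score. In that table each of 126 probes compared was a straight line of its own raw counts across libraries (largest residual 0.640), so the score was used only as an alternative. Per the methods, the authors normalised with NanoStringDiff, which was not used here.

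Scaling factors multiplied the positive-control slope by the housekeeping median ratio (6 positive controls, 5 housekeeping mRNAs) and were centred on a geometric mean of 1. A miRNA was tested when its count exceeded the mean plus 2 SD of the 8 negative controls in at least 3 of 6 libraries. Groups were compared in R 4.3.3 with the robust quasi-likelihood test of edgeR 4.0.16, two-sided, with Benjamini-Hochberg adjustment over 152 miRNAs and a threshold of 0.1. Ratios to the miR-17 probe, log2 of count + 1, were compared with limma 3.58.1. Single values were compared by exact two-sided permutation. The fits were tested on simulated data. Alternatives were TMM, DESeq2 1.42.0, other scalings and filters, background subtraction, the authors' scores, a replicate block and leaving out each library.

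The miRNAs named were the members, the tested probes of the lists of opposite arms, paralogs and shared seeds, the 3 MYC-repressed miRNAs with the smallest p and the 3 nearest profiles. Untested probes of these lists and of the marker lists are named only as below or near background. Members and lists were chosen with earlier results of these data known. The labels do not say whether replicates were separate cultures. A p-value here covers the spread of these 6 libraries, which may be technical. In the main edgeR fit and in limma that spread is largely pooled over all tested miRNAs, so an SE says little about a miRNA's own spread. The edgeR SE was 0.170 for miR-18a and 0.169 for miR-19a, although their siSCR SDs were 17.7 and 44.3 scaled counts.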

Additional observations from a re-analysis of the deposited data

How the results depend on the processing

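Against 3 members called lower and 0 higher, the counts were 1 and 1 with TMM, 0 and 1 with DESeq2, 5 and 0 with positive controls only, 3 and 1 with the total miRNA count, and 1 and 1 with the 100 most abundant probes. Of all tested miRNAs, 30.3%, 26.3%, 84.2%, 42.8% and 30.3% were called lower in these 5 scalings and 30.9%, 25.7%, 3.95%, 21.1% and 30.9% higher. Leaving out 1 library gave 3 to 4 lower and 0 to 1 higher (all tested miRNAs 41.4% to 62.5% and 5.92% to 13.2%). The miR-17 probe turned to 0.068 (TMM), 0.058 (DESeq2) and 0.067 (100 most abundant), and the miR-20a probe to 0.043, 0.034 and 0.043, while miR-92a was at -0.011 with positive controls only. The cause was not tested beyond the shift of the median of all miRNAs given above. miR-18a, miR-19a and miR-19b stayed negative in all 16 alternatives.

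The ratio of miR-92a to miR-17 was called higher in all 11 alternatives (0.51 to 1.01, limma adjusted p 2.47e-05 to 0.0929). These alternatives are not independent. The replicate block, no filter and robust eBayes leave the difference at 0.72 by construction, and the authors' scores are a straight line of the same raw counts. For the miR-92 over the miR-17 seed group the exact permutation p was 0.2. Of all miRNAs compared, 41.5% were called higher with no filter and 13.9% to 29.1% in the other alternatives. Members called lower relative to miR-17 numbered 0 in the main comparison, 1 with robust eBayes, which was chosen after seeing the data, and 0 to 3 with 1 library left out: 1 without siSCR replicate 3 and 3 without siAPE1 replicate 3. The share of all tested miRNAs was 25.8%, 27.8% with robust eBayes, 22.5% without siSCR replicate 3 and 35.8% without siAPE1 replicate 3. The ratio of miR-20a to miR-17 ran from -0.14 to 0.055 with 1 library left out, at 0.025 without siSCR replicate 1, 0.034 without siAPE1 replicate 1 and 0.055 without siAPE1 replicate 2. The ratios of seed-group sums moved by less than the pooled SD of both groups in all 9 alternatives, though at times by more than the SD of 1 group, and the miR-19 over miR-18 ratio was -0.014 and -0.011 without siAPE1 replicates 2 and 3.

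Same-numbered libraries of the groups did not deviate together (correlations -0.59, -0.01 and -0.49). With 3 libraries per group such correlations depend on each other, so they cannot decide whether the numbers pair the libraries. With the replicate block, 5 members were called lower and 0 higher (63.2% of all tested miRNAs were called lower), miR-17 (adjusted p = 0.0227, edgeR) and miR-20a (adjusted p = 0.0214, edgeR) among them. miR-92a lay nearest to background, and its siSCR libraries differed by more than counting error.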
